A study of Mus musculus with 12 samples.

Results

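Early mifepristone was compared with its absence in C4-HD, a mammary carcinoma carried in BALB/c mice. The tumours had been grown under MPA (medroxyprogesterone acetate, a progestin), and once they measured 50 mm2 a pellet of MFP was implanted in place of the MPA pellet; MFP is mifepristone, a progesterone receptor antagonist that also blocks the glucocorticoid receptor, here at 10 mg/kg/day. The early arm joins 2 arrays of tumours at 6 h and 2 at 12 h of MFP, and the arm without MFP joins 2 arrays of tumours with MPA and 2 of saline-treated tumours whose source name is no MPA, taken at 48 h. These are 8 of the 12 arrays of the series, and the other 4 are of later MFP times, 24 h and 48 h. The early arm therefore differs from the MPA arrays by the loss of MPA and the gain of MFP at once, and from the no MPA arrays by MFP and by time.

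The labels leave some points unsettled. The treatment protocol calls saline-treated tumours that kept MPA the controls, while the saline arrays carry the source name no MPA. No 6 h group is named in the series text, which has 12 h, 24 h and 48 h, so that time rests on the sample labels. Replicates are called independent there, but separate animals are not stated, so the p-values reflect the spread between samples, which may be technical. Each deposited value gives log2 of the signal over its mean in MPA, so the tissue label could not be checked against the level of its markers, and a fold change compares arrays within 1 gene. In such bulk tissue, fewer cells of a type and less RNA per cell cannot be told apart.

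The progesterone receptor is a transcription factor that binds hormone response elements once a progestin occupies it. In mammary epithelium it drives proliferation partly in the receptor-positive cell itself, through genes such as Myc and Ccnd1, and partly through secreted factors that act on neighbouring cells. Mifepristone occupies the receptor and holds it in a form that recruits corepressors. Progestin-dependent mouse mammary carcinomas such as C4-HD are known to regress under this drug.

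Genes with lower RNA at 6 h and 12 h of MFP outnumbered those with higher RNA. Of 18193 genes 1512 passed limma's moderated test at a Benjamini-Hochberg adjusted p of 0.05 (8.31%), with 624 higher (3.43%) and 888 lower (4.88%) in early MFP. The largest falls were those of the growth factor gene Nrg1 and the potassium channel subunit gene Kcne3. The largest rises that passed were of exocrine pancreas genes such as Prss2 (5.14), whose arrays overlapped between the arms, and among genes without overlap those of Clca3a2 (2.82), Mbp (2.60) and the adhesion gene Ceacam1 (2.14). Changes of at least 1 on the log2 scale, a 2-fold change, were found for 203 of the genes that rose and 317 of those that fell. The median log2 fold change over all genes was 0.01.

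All 4 early arrays lay above all 4 arrays without MFP for 1138 genes (6.26%) and below them for 1479 genes (8.13%), together 14.4% of the genes. Of these 2617 genes 1296 also passed limma's test (7.12% of all genes), 513 above (2.82%) and 783 below (4.3%). The other 1321 did not pass, and 216 genes passed although the arrays of the arms overlapped. At the edge of the rule, the gap between the arms was 0.005927 for L1cam and 0.006636 for Basp1, just inside it. Just outside, where a negative gap is an overlap, it was -0.000114 for Dmd and -0.003177 for Bcl2l14.

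**Figure D1:**
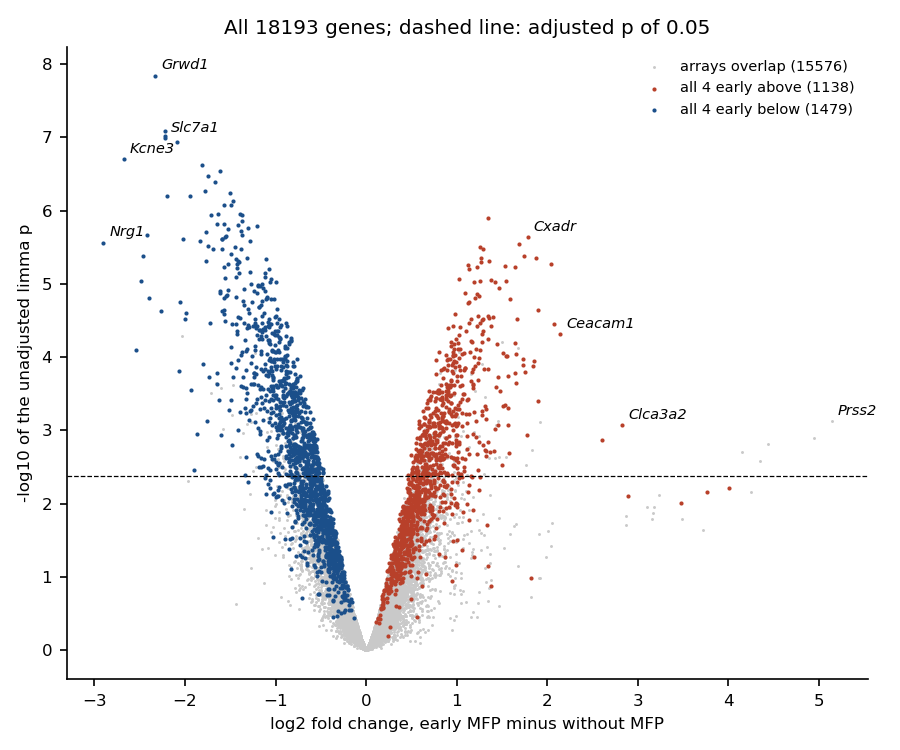
Each point is 1 of 18193 genes, placed by its log2 fold change (early MFP minus without MFP) and by -log10 of limma's unadjusted p. Colours mark the 1138 genes with all 4 early arrays above and the 1479 with all 4 below the arrays without MFP, and the exocrine pancreas gene Prss2 lies far to the right among genes whose arrays overlap.

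The groups within each arm were set against each other by the same test. Between 12 h and 6 h of MFP limma called 0 genes at the adjusted threshold, with 1348 genes (7.41%) at an unadjusted p under 0.05. The smallest adjusted p was 0.307, for the DNA polymerase gene Polh (12 h minus 6 h -1.45). Between no MPA and MPA it again called 0, with 1198 genes (6.58%) at an unadjusted p under 0.05, and the smallest adjusted p, 0.114, was that of Pgr, the progesterone receptor gene itself (no MPA minus MPA 2.21). A p that misses the threshold does not show that these groups were alike. Leaving out MFP 6 h replicate 1 gave 2 calls between 12 h and 6 h, and leaving out MPA replicate 1 gave 4 between no MPA and MPA, where quantile normalization gave 13.

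Against each reference group alone, with the same early arrays in both contrasts, the calls were fewer. Against MPA 813 genes passed (4.47%), 277 higher (1.52%) and 536 lower (2.95%), and against no MPA 740 passed (4.07%), 301 higher (1.65%) and 439 lower (2.41%). The rises called against each of the references numbered 128, and the falls 287. With all 4 arrays without MFP as reference, the 6 h arrays alone gave 488 calls (2.68%), 161 higher (0.885%) and 327 lower (1.8%), and the 12 h arrays alone gave 1112 (6.11%), 468 higher (2.57%) and 644 lower (3.54%). The main count of 1512 genes fell to between 699 and 871 when any 1 of the no MPA, 6 h or 12 h arrays was left out, and was 1092 and 1127 without the first and the second MPA array. It was 878 without both 6 h arrays and 327 without both 12 h arrays, and 608 (235 higher, 373 lower) after quantile normalization of the columns.

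Genes of other organs and control probe sets for RNA breakage differed between arrays. Exocrine pancreas genes, 16 in all, had a median of 5.95 and 4.53 in the 6 h arrays, 0.17 and 0.87 at 12 h, 0.48 and -0.72 in MPA and -0.68 and -0.65 in no MPA. In the late arrays this median was 0.78 and 6.80 at 24 h and 4.84 and 5.44 at 48 h. For 22 liver genes it was 0.84 and -2.27 in the MPA arrays, 1.22 and -0.85 at 6 h, and between -1.98 and -1.37 in no MPA and at 12 h. The Actb difference of 3' over 5' control probe sets, which grows as RNA is broken, was -0.07, 0.05, -0.09 and 0.14 in the arrays without MFP, 0.20 and 0.13 at 6 h, and 0.34 and 0.36 at 12 h, so that the arms overlapped. Early MFP exceeded the other arm by 0.248 (exact two-sided permutation test, p = 0.0571, where the smallest possible is 0.0286), and for Gapdh by 0.139 (p = 0.229, same exact test). Without the genes that followed the organ lists across arrays, 1572 of 17688 genes passed. The part of RNA breakage in the results was not tested.

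**Figure D2:**
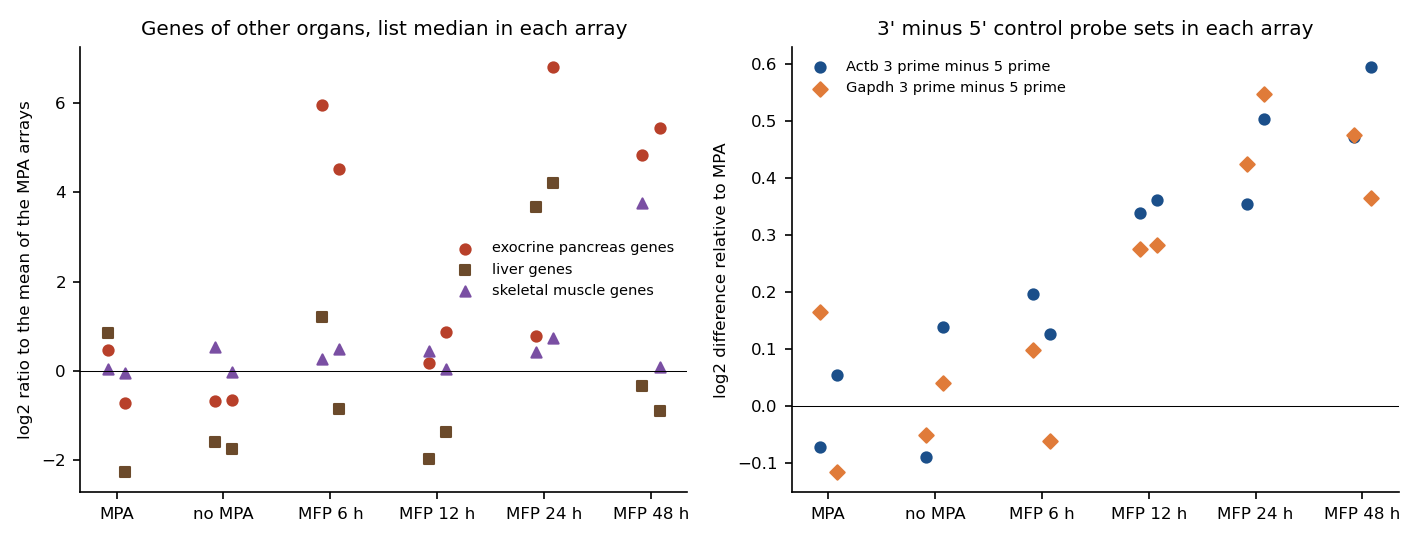
Left, the median log2 ratio of 3 lists of organ genes in each of the 12 arrays, by group; right, the 3' minus 5' difference of the Actb and Gapdh controls in each array. The exocrine pancreas median stands at 5.95 and 4.53 at 6 h of MFP and below 1 at 12 h and in the arrays without MFP. It stands at 0.78 and 6.80 at 24 h and at 4.84 and 5.44 at 48 h.

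Nrg1 encodes neuregulin 1, a ligand of the receptors ERBB3 and ERBB4, and had the largest fall of any gene. Its values were -0.08 and 0.08 in MPA, 0.30 and 0.40 in no MPA, -2.60 and -2.57 at 6 h, and -2.20 and -3.55 at 12 h. Nearest arrays of the arms were thus 2.12 apart, and the fall was as deep at 6 h as at 12 h. The fold change was -2.91 ± 0.31 (standard error in limma, as in all later cases), a 7.49-fold lower signal with a 95% interval of -3.60 to -2.21 on the log2 scale (adjusted p = 0.00118). Against MPA alone it was -2.73 and against no MPA alone -3.08, with the same early arrays.

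Kcne3, a regulatory subunit of potassium channels, stood at -0.43 and 0.33 in MPA, 0.71 and 0.55 in no MPA, -2.66 and -2.00 at 6 h and -2.37 and -2.52 at 12 h. No early array came near the others, and the fold change was -2.68 ± 0.22 (adjusted p = 0.000594). Slc7a1, the cationic amino acid transporter that carries arginine and lysine, had 0.07 and -0.07 in MPA, 0.73 and 0.71 in no MPA, -2.10 and -1.85 at 6 h and -1.97 and -1.55 at 12 h (-2.23 ± 0.17, adjusted p = 0.000422). Its 3 probe sets were all lower. Stc2, a secreted glycoprotein known as an estrogen-responsive gene, was -0.42 and 0.33 in MPA and 1.10 and 2.24 in no MPA, against -1.82 and -1.91 at 6 h and -1.13 and -1.75 at 12 h. No overlap of the arms was seen for Stc2 (-2.46 ± 0.28, adjusted p = 0.00142), and the difference from no MPA (-3.32) was larger than that from MPA (-1.61).

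The fall of Grwd1, a WD-repeat protein of ribosome assembly, had the smallest p of all genes. It read 0.01 and -0.01 in MPA, -0.36 and -0.73 in no MPA, -3.09 and -3.39 at 6 h, and -2.02 and -1.94 at 12 h (-2.34 ± 0.15, adjusted p = 0.000263). Other probe sets of Grwd1 read -1.53, which passed, and -0.51, which did not. Timm8a1, a chaperone between the mitochondrial membranes, lay between -2.55 and -2.09 in the early arrays and between -0.12 and 0.11 in the others (-2.22 ± 0.17). Ppat, the first enzyme of purine synthesis, fell by 2.54 ± 0.40 on the log2 scale (adjusted p = 0.00555) on the probe set that stands for it, while its other probe sets were at -0.03 and -0.37 without passing. AI506816 also fell (-2.49 ± 0.31), and so did Cdc7, the kinase that switches on the replicative helicase (-2.27 ± 0.31). Rpl12, a protein of the large ribosomal subunit, was between -0.07 and 0.06 in the arrays without MFP and between -2.17 and -1.69 in the early ones (-1.83 ± 0.20, adjusted p = 0.00116).

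**Figure D3:**
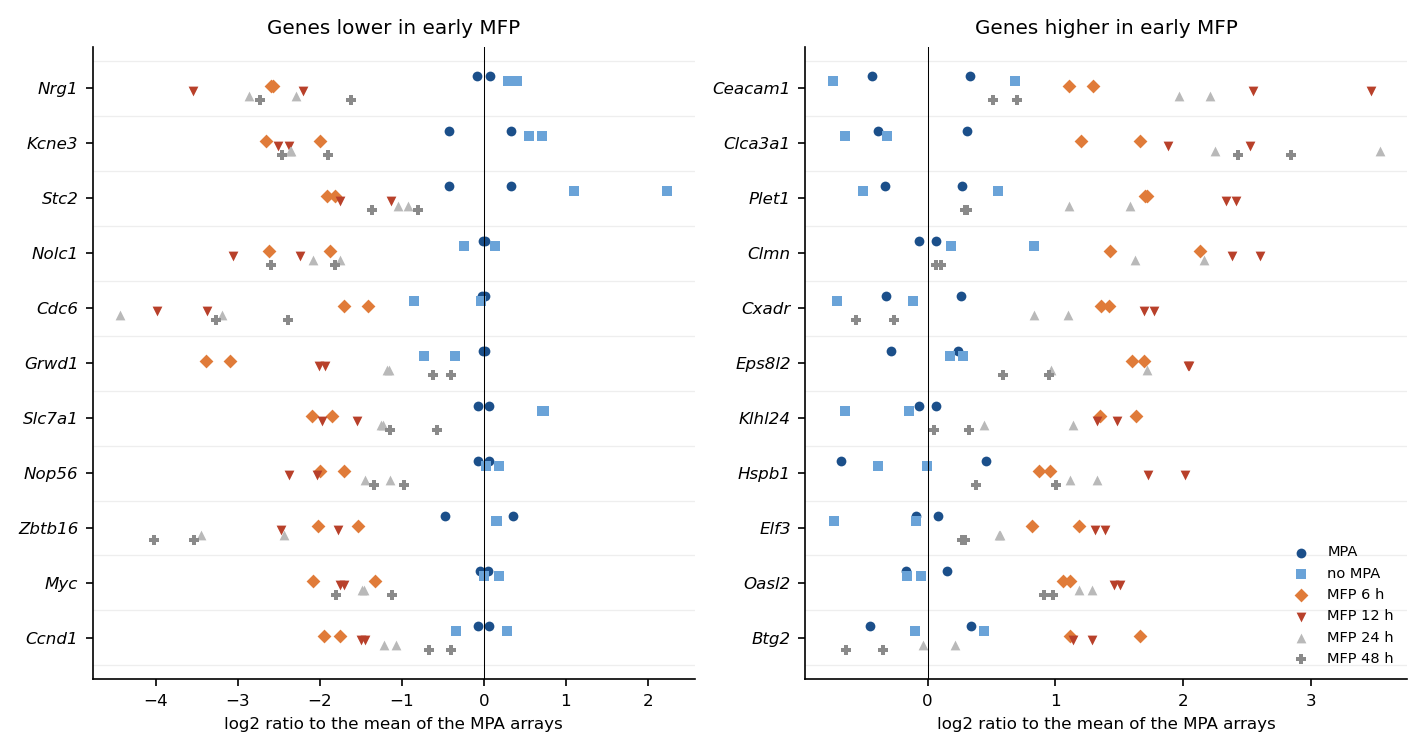
Log2 of the signal over its MPA mean for 11 genes lower (left) and 11 higher (right) in early MFP, with 1 symbol per array and late MFP (24 h, 48 h) in grey. The 4 early arrays lie to one side of the 4 arrays without MFP for each of these genes.

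Among the genes that rose, Ceacam1 encodes an adhesion molecule of the epithelial cell surface. It was 0.33 and -0.44 in MPA, 0.68 and -0.74 in no MPA, 1.10 and 1.29 at 6 h, and 2.54 and 3.46 at 12 h. All early arrays were above all others, with the 12 h pair highest, and the fold change was 2.14 ± 0.32 (adjusted p = 0.00426). All 8 of its probe sets were higher, some of which may also read close relatives of the gene. Clca3a1, a chloride channel accessory protein, was between -0.64 and 0.31 without MFP and between 1.20 and 2.52 in early MFP (2.07 ± 0.30). Clca3a2, a close relative that the array may not tell apart, had 2.82 ± 0.61 (adjusted p = 0.0198), the largest rise among the genes that passed with arms that did not overlap, though the call was lost without any 1 of the 6 h or 12 h arrays or the second of MPA or no MPA. Cxadr, the coxsackievirus and adenovirus receptor of tight junctions, had 1.42 and 1.36 at 6 h and 1.69 and 1.77 at 12 h, and between -0.71 and 0.26 without MFP (1.78 ± 0.19, adjusted p = 0.00114).

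Other risen genes named by size have varied roles. Eps8l2, an actin regulator, was -0.29 and 0.24 in MPA, 0.18 and 0.28 in no MPA, 1.60 and 1.69 at 6 h, and 2.04 and 2.05 at 12 h. Its lowest early array was 1.32 above the highest of the others (1.74 ± 0.20, adjusted p = 0.00142). Exph5, an effector of the vesicle GTPase Rab27 (1.86 ± 0.31), Reps2, a protein of endocytosis (1.65 ± 0.30), and Scin, which severs actin filaments (1.78 ± 0.40), also rose. Plet1, a surface protein of epithelial progenitors, was 1.71 and 1.70 at 6 h and 2.33 and 2.41 at 12 h, with no other of the 8 arrays above 0.55 (2.04 ± 0.24, adjusted p = 0.00148). Klhl24, an adaptor of a ubiquitin ligase, had 1.64 ± 0.19, and Mtus1, a microtubule-associated protein, 1.85 ± 0.31. Other probe sets of Mtus1 read 0.90 and 1.54 without passing. Mbp rose by 2.60 ± 0.60 on its chosen probe set (adjusted p = 0.0259), with 4.40 in 1 of the 12 h arrays and between 1.67 and 2.10 in the other early arrays. Its other probe sets read 0.23 to 1.11, of which only the highest passed. Its call was lost when any of 7 of the 8 arrays was left out, and that of Scin without any early array or the second of MPA or no MPA. Tlr4, the receptor for bacterial lipopolysaccharide, rose by 1.69 ± 0.18 on the chosen probe set, while another read -0.22.

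Genes of ribosome biogenesis, which make and process ribosomal RNA in the nucleolus, were lower in early MFP. Of 24 measured members 16 fell and 0 rose, all 24 fold changes were below 0, and the median was -1.10, beside 4.88% of all genes falling and a median of 0.01. For 18 members all 4 early arrays were below all others, beside 8.13% of all genes. The list was chosen with earlier results of these data known. Its median in each array was 0.06 and -0.06 in MPA, 0.07 and -0.09 in no MPA, -1.16 and -1.34 at 6 h, and -1.21 and -1.14 at 12 h, so the 6 h arrays were already as low as the 12 h arrays. Without the 6 h arrays 15 members fell, and without the 12 h arrays 13.

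Nop56, a core protein of the particles that methylate ribosomal RNA, was 0.07 and -0.07 in MPA, 0.19 and 0.03 in no MPA, -1.71 and -2.00 at 6 h, and -2.04 and -2.38 at 12 h. It was thus lower in every early array (-2.09 ± 0.16, adjusted p = 0.000422). Its partners in the same particles fell too, Nop58 by 1.55 ± 0.16 on the log2 scale and Fbl, the methyltransferase fibrillarin, by 1.56 ± 0.22. Dkc1, the pseudouridine synthase dyskerin, was between -2.03 and -1.86 in the early arrays and between -0.41 and 0.10 in the others (-1.81 ± 0.15, adjusted p = 0.000612). Nolc1, a nucleolar phosphoprotein that binds such particles, was -1.88 and -2.62 at 6 h and -2.25 and -3.07 at 12 h (-2.43 ± 0.26). Other probe sets of Nolc1 read -1.13, which passed, and -0.90, which did not.

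Values at 6 h and 12 h are given for 3 further nucleolar genes. Gnl3, the GTPase nucleostemin, was -1.61 and -1.90 at 6 h and -1.35 and -1.32 at 12 h (-1.61 ± 0.14). Npm1, which encodes nucleophosmin, was -0.39 and -0.38 at 6 h and -1.28 and -1.37 at 12 h, with the arrays without MFP between -0.03 and 0.00 (-0.84 ± 0.15, adjusted p = 0.00788). Ncl, which encodes nucleolin, lay between these with -1.05 and -1.23 at 6 h and -1.76 and -2.27 at 12 h (-1.59 ± 0.17). None of the 3 passed the test of 12 h against 6 h. Polr1a, the largest subunit of RNA polymerase I, fell by 1.09 ± 0.23 on the log2 scale, with arrays that overlapped between the arms.

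Myc, the transcription factor known for driving ribosome and nucleotide synthesis, fell with them. It read 0.05 and -0.05 in MPA, 0.19 and 0.01 in no MPA, -1.32 and -2.08 at 6 h, and -1.75 and -1.71 at 12 h. All early arrays lay at least 1.27 below the others, and the fold change was -1.76 ± 0.20 (adjusted p = 0.00145). Of the 13 genes of the MYC network list 1 fell, Myc itself, and 1 rose, Mxi1, an antagonist of MYC (0.76 ± 0.21, adjusted p = 0.0489). The list median was 0.02, and 4.88% of all genes fell and 3.43% rose. The call of Mxi1 was lost without any 1 of the 8 arrays other than 6 h replicate 1, and its other probe set read 0.18 without passing.

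**Figure D4:**
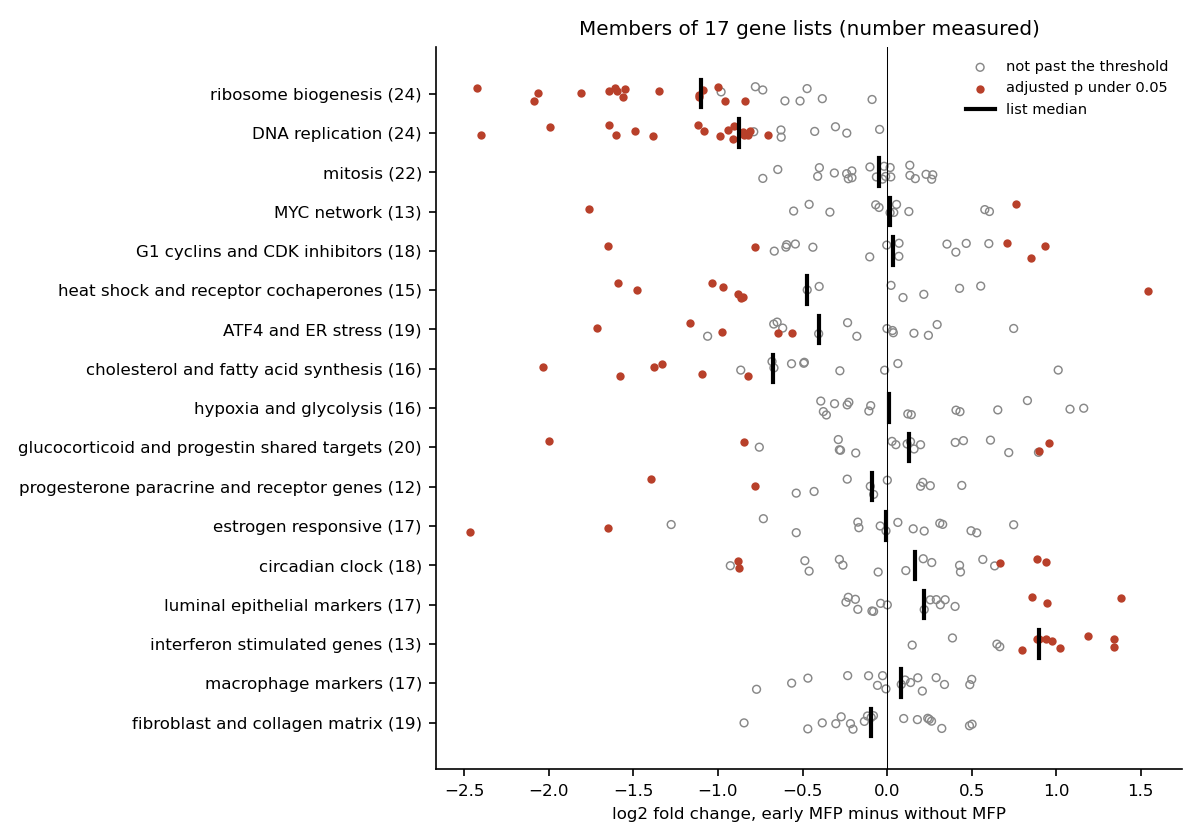
Log2 fold changes (early MFP minus without MFP) of the members of 17 gene lists, with filled points for members past limma's threshold and a bar at the list median. The medians of ribosome biogenesis and DNA replication stand at -1.10 and -0.88, while that of mitosis is -0.05 with no filled point.

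Most DNA replication genes fell, while no gene of mitosis passed. Of 24 measured replication genes 17 fell and 0 rose (median -0.88), and of 22 mitosis genes 0 passed in either direction (median -0.05), beside 4.88% of all genes falling and 3.43% rising. Against the arrays without MFP, the replication median was -0.49 at 6 h and -1.31 at 12 h, and the mitosis median 0.20 and -0.34. In the arrays, the replication median was -0.12 and 0.11 in MPA, -0.14 and -0.32 in no MPA, -0.57 and -0.77 at 6 h, and -1.37 and -1.53 at 12 h. No member of these lists passed between 12 h and 6 h. The replication count was 10 without no MPA replicate 1 or without 6 h replicate 2, 8 without 12 h replicate 2, 16 without both 6 h arrays and 2 without both 12 h arrays.

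Cdc6, which loads the replicative helicase onto origins, was -0.02 and 0.02 in MPA, -0.03 and -0.85 in no MPA, -1.70 and -1.41 at 6 h, and -3.38 and -3.99 at 12 h. Every early array was below every other, the 12 h pair lowest (-2.40 ± 0.31, adjusted p = 0.00247). Mcm2, a subunit of that helicase, was between -0.23 and 0.14 without MFP, -1.32 and -1.19 at 6 h, and -1.90 and -1.79 at 12 h (-1.49 ± 0.14, adjusted p = 0.000905). The subunits Mcm3, Mcm4, Mcm5 and Mcm7 fell as well, by 1.60, 1.12, 1.64 and 1.08 on the log2 scale. Rrm2, the regulated subunit of ribonucleotide reductase, was -1.06 and -1.38 at 6 h and -3.32 and -2.70 at 12 h (-1.99 ± 0.27). Pole, the leading-strand polymerase, fell by 1.38 ± 0.22 and Pcna, the sliding clamp, by 0.90 ± 0.19.

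Among the mitosis genes, the proliferation marker Mki67 was 0.27 and -0.14 at 6 h and -0.51 and -1.02 at 12 h, beside values between -0.32 and 0.05 without MFP. The 6 h arrays thus overlapped the others, and the fold change was -0.23 ± 0.28 (adjusted p = 0.737). The Aurora kinase gene Aurkb (-0.40 ± 0.15, adjusted p = 0.149) and Top2a, the topoisomerase that untangles chromosomes (-0.65 ± 0.28, adjusted p = 0.223), did not pass. The mitosis median of the late arrays (24 h, 48 h) lay between -2.36 and -1.27, while no early array was below -0.62.

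**Figure D5:**
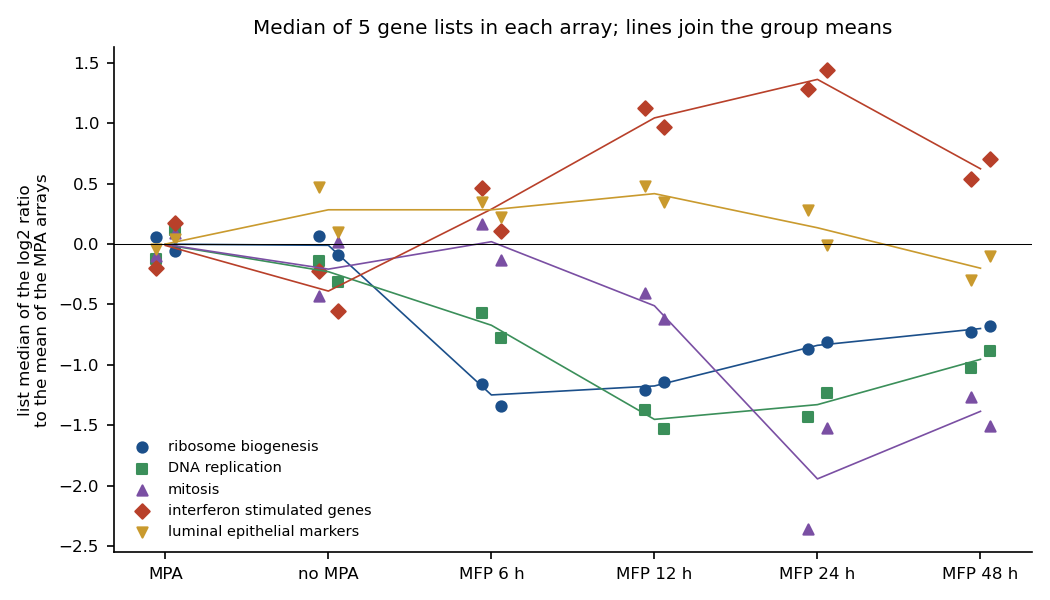
Median log2 ratio of the members of 5 gene lists in each of the 12 arrays, with lines through the group means. The ribosome biogenesis median is near its lowest already at 6 h, the replication median is lower at 12 h (-1.37 and -1.53) than at 6 h (-0.57 and -0.77), and the mitosis median is lowest at 24 h.

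Of 18 G1 cyclin and inhibitor genes 3 rose and 2 fell (median 0.03), beside 3.43% of all genes rising and 4.88% falling. Ccnd1, which encodes cyclin D1, was -0.07 and 0.07 in MPA, 0.29 and -0.34 in no MPA, -1.95 and -1.76 at 6 h, and -1.50 and -1.45 at 12 h. Between the arms lay a gap of 1.11 (-1.65 ± 0.17, adjusted p = 0.00109), and 3 of 3 probe sets were lower. Of the probe sets not chosen, the reading of -1.26 passed and that of -1.03 did not. Ccne1, the cyclin of the G1/S transition, fell by 0.78 ± 0.17 on the log2 scale. The inhibitors of cyclin-dependent kinases Cdkn1b (0.85 ± 0.18) and Cdkn1a (0.71 ± 0.16, adjusted p = 0.0262) and the pocket protein gene Rbl2 (0.93 ± 0.17) rose. The other probe set of each did not pass, with 0.50 for Cdkn1b, 0.07 for Cdkn1a and 0.35 for Rbl2. For Cdkn1a, the early arrays held between 0.50 and 0.70 and the others between -0.47 and 0.18, but its call was lost without any early array, MPA replicate 1 or no MPA replicate 2. The call of Cdkn1b was lost without either no MPA array or the second of 6 h or 12 h, and that of Ccne1 without either no MPA array, MPA replicate 2, 6 h replicate 1 or 12 h replicate 2.

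Of 15 heat shock and receptor cochaperone genes, which fold proteins and hold steroid receptors, 7 fell and 1 rose (median -0.47), beside 4.88% and 3.43% of all genes. Hspd1, the mitochondrial chaperonin, was -1.62 and -1.50 at 6 h and -1.45 and -1.94 at 12 h, with -0.30 to 0.16 in the arrays without MFP (-1.59 ± 0.17, adjusted p = 0.00114). Hspe1, its cochaperonin, fell by 0.85 ± 0.15, Hsph1 by 1.48 ± 0.21 and Hspa8, the constitutive HSP70, by 1.04 ± 0.18 on the log2 scale. Other probe sets of Hspa8 read -0.99 and -1.12, which passed, and -0.23, which did not. Of the proteins that hold steroid receptors ready for hormone, Hsp90aa1 (-0.88 ± 0.16), Stip1 (-0.97 ± 0.21) and Fkbp4 (-0.86 ± 0.19) fell. The gene that rose was Hspb1, the small heat shock protein HSP27, at 0.87 and 0.96 at 6 h and 2.01 and 1.72 at 12 h, against -0.68 to 0.46 without MFP (1.54 ± 0.25, adjusted p = 0.006). The count of falls was 2 without both 12 h arrays.

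Synthesis of cholesterol and fatty acids had 6 falls and 0 rises among 16 genes (median -0.67), beside 4.88% of all genes falling. Acaca, which makes malonyl-CoA, was -0.63 and -0.78 at 6 h and -2.10 and -1.26 at 12 h, and between -0.15 and 0.37 without MFP (-1.33 ± 0.23, adjusted p = 0.00756), and Fasn, the fatty acid synthase, fell by 0.82 ± 0.13. For Idi1, of isoprenoid synthesis, the no MPA arrays were themselves at -1.73 and -1.11, so they overlapped the 6 h arrays at -1.46 and -1.45, with -4.72 and -3.39 at 12 h (-2.03 ± 0.31, adjusted p = 0.00432). The list's count was 3 after quantile normalization and 0 without both 12 h arrays. Of 19 ATF4 and ER stress genes 5 fell and 0 rose (median -0.40, against the same 4.88%), led by Mthfd2, a mitochondrial folate enzyme (-1.17 ± 0.21, adjusted p = 0.0103). Psat1, of serine synthesis, was -0.77 and -0.31 at 6 h and -3.12 and -2.63 at 12 h and overlapped the no MPA arrays (-1.72 ± 0.32).

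Of 20 measured targets that progestins and glucocorticoids share, 2 rose, 2 fell and 16 did not pass (median 0.13), beside 3.43% of all genes rising and 4.88% falling. Zbtb16, a transcription factor strongly induced by both hormones, was 0.35 and -0.47 in MPA, 0.14 and 0.16 in no MPA, -1.54 and -2.02 at 6 h, and -1.78 and -2.47 at 12 h. It was thus as high in no MPA as in MPA and lower in every early array (-2.00 ± 0.28, adjusted p = 0.00355). Fkbp5, a receptor cochaperone induced by both hormones, was 0.29 and -0.36 in MPA, -0.73 and -0.67 in no MPA, and between -1.47 and -0.82 in early MFP (-0.85 ± 0.18, adjusted p = 0.0204). Its difference from MPA passed (-1.18, adjusted p = 0.0195), while that from no MPA did not (-0.52, adjusted p = 0.277). Nfkbia, the inhibitor of NF-kB (0.90 ± 0.17), and the metallothionein gene Mt2 (0.96 ± 0.24, adjusted p = 0.0354) rose. The call of Mt2 was lost without any 1 of the 8 arrays other than MPA replicate 2, and that of Fkbp5 without MPA replicate 1, either no MPA array, 6 h replicate 1 or 12 h replicate 2. Other hormone targets did not pass: Per1 had -0.28 ± 0.17, Tsc22d3 -0.76 ± 0.33, Sgk1 -0.29 ± 0.23 and Ddit4 -0.28 ± 0.18.

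The receptor genes themselves did not pass. Pgr was -0.17 and 0.15 in MPA, 1.90 and 2.50 in no MPA, 1.005 and 0.53 at 6 h, and 1.46 and 1.40 at 12 h. Early MFP thus lay between the references, 1.11 above MPA (adjusted p = 0.037) and 1.10 below no MPA (early minus no MPA -1.10, adjusted p = 0.0394), and the pooled fold change was 0.00 ± 0.20 (adjusted p = 0.998). Its other probe sets read 0.40 and 0.86 without passing. Esr1, the estrogen receptor gene, had 0.26 ± 0.17 and Nr3c1, the glucocorticoid receptor gene, 0.44 ± 0.27. Of the 12 genes of progesterone's paracrine action and receptors 2 fell, beside 4.88% of all genes. These were Cited1 (-1.40 ± 0.35) and Stat5a (-0.78 ± 0.15), each with arrays that overlapped. The call of Cited1 was lost without any no MPA or early array. The call of Stat5a was lost without no MPA replicate 2, 6 h replicate 1 or 12 h replicate 2. Stat5a, a transcription factor of milk gene expression, was 1.33 and 1.75 in no MPA, 0.00 in both MPA arrays, and between -0.36 and 0.23 in early MFP. Its difference was -1.55 from no MPA (adjusted p = 0.00492) and -0.01 from MPA (adjusted p = 0.985). Tnfsf11, which encodes the secreted mediator RANKL, was at -0.43 ± 0.20 (adjusted p = 0.241) and Wnt4, another such mediator, at 0.20 ± 0.28.

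Among growth factor genes, Btc, an ERBB ligand, fell like Nrg1 (-1.86 ± 0.42, adjusted p = 0.0233), and the other 12 of 14 ERBB ligand and receptor genes did not pass. Of all genes 4.88% fell and 3.43% rose. Tgfb1 fell by 1.17 ± 0.26 on the log2 scale (adjusted p = 0.0231), with 1.24 and 1.15 in no MPA, 0.10 and -0.10 in MPA, and -1.35 to -0.13 in the early arrays. The receptor gene Fgfr1 (0.66 ± 0.17) and the inhibin subunit gene Inhbb (0.69 ± 0.16) rose. The call of Fgfr1 was lost without any 1 of the 8 arrays other than MPA replicate 2, and that of Inhbb without any early array, MPA replicate 1 or no MPA replicate 2. Tgfb1 lost its call without MPA replicate 1, either no MPA array, either 6 h array or 12 h replicate 2, and its other probe set read -0.31 without passing. Btc lost its call without either MPA array, no MPA replicate 2 or the first array of 6 h or 12 h. None of 13 genes of the IGF axis passed, where Igfbp6 had the smallest p (0.90 ± 0.32, adjusted p = 0.132). Of 17 estrogen-responsive genes 2 fell, Stc2 and Ccnd1, beside 4.88% of all genes.

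Interferon-stimulated genes, an antiviral programme that interferon switches on, were higher in early MFP. Of 13 measured members 9 rose and 0 fell, beside 3.43% of all genes rising, all 13 fold changes were above 0, and the median was 0.90. All 4 early arrays were above all others for 5 members, beside 6.26% of all genes. In the arrays the median was -0.20 and 0.17 in MPA, -0.23 and -0.55 in no MPA, 0.47 and 0.11 at 6 h, and 1.12 and 0.96 at 12 h, so that 1 of the 6 h arrays was below an MPA array. The count of rises was 5 without no MPA replicate 1, without 6 h replicate 1 or without either 12 h array. It was 1 without both 12 h arrays, 9 without both 6 h arrays and 4 after quantile normalization.

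Oasl2, a member of the oligoadenylate synthetase family, was -0.17 and 0.15 in MPA, -0.05 and -0.16 in no MPA, 1.11 and 1.06 at 6 h, and 1.51 and 1.46 at 12 h. Its early arrays were all 0.90 or more above the others (1.34 ± 0.13, adjusted p = 0.00103). Ifit1, which binds viral RNA ends, was 0.86 and 0.32 at 6 h and 1.76 and 1.32 at 12 h, and between -0.55 and 0.17 without MFP (1.34 ± 0.19, adjusted p = 0.00349). Usp18, which removes ISG15 from proteins (0.90 ± 0.15), and Oas2 (0.80 ± 0.15) also rose without overlap of the arms. Ifit2, Ifit3, Rsad2 and the chemokine gene Cxcl10 rose by 1.19, 0.94, 0.89 and 1.02, with at least 1 of their 6 h arrays inside the range of the arrays without MFP. Ccl4, another chemokine gene, rose by 1.01 ± 0.21. The call of Cxcl10 was lost without MPA replicate 1, 6 h replicate 1 or any no MPA or 12 h array, and that of Ccl4 without no MPA replicate 1, either 6 h array or 12 h replicate 1.

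Promoters of risen interferon genes are shown for a motif of GAAA, any 2 bases and GAAA, the core of interferon response elements, which was added to the motifs after values had been seen. It was searched on both strands in the 250 bases before the start in RefSeq's promoter table (GRCm38.p6), and lay in 4 of 7 risen interferon genes with a promoter there (57.1%), Cxcl10, Ifit1, Ifit3 and Rsad2. Its share was 7.49% in all 494 risen genes with a promoter, 3.18% in 755 fallen ones and 3.13% in all 14452 tested. The sequences run 5' to 3' on the gene's strand, where the motif reads as TTTC, any 2 bases and TTTC, with capitals marking it. Ifit1 is at chr19:34640639-34640888 and Ifit3 at chr19:34583279-34583528, each on the plus strand, and Rsad2 at chr12:26456453-26456702 on the minus strand. A match is a description and not a binding site.
Ifit1: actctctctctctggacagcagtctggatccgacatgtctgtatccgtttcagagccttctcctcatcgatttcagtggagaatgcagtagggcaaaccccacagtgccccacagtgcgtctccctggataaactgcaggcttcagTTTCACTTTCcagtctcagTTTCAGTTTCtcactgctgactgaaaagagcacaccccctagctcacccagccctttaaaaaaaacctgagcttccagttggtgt
Ifit3: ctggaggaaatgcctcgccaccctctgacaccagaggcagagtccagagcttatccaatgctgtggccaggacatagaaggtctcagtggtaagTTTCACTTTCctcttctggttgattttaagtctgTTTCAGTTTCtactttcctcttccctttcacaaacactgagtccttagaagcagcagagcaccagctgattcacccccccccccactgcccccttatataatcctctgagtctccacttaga
Rsad2: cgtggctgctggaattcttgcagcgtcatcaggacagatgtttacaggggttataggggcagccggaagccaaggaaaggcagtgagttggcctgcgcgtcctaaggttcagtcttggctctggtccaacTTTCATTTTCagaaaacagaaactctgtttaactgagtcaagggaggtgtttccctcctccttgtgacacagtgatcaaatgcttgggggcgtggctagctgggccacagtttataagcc
Ifit1 and Ifit3 each hold 2 matches in this window and Rsad2 holds 1, while the windows of the risen genes Oasl2, Ifit2 and Oasl1 hold none.

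The E-box CACGTG, which MYC and related factors bind, was searched in the same windows. It was in 104 of 755 fallen genes (13.8%), 41 of 494 risen genes (8.3%) and 8.73% of all 14452. Of 13 fallen ribosome biogenesis genes with a promoter 1 held it, Nop2, an RNA methyltransferase (-1.001 ± 0.16), whose window at chr6:125131633-125131882 on the plus strand is shown with the motif in capitals, starting 60 bases before the gene.
Nop2: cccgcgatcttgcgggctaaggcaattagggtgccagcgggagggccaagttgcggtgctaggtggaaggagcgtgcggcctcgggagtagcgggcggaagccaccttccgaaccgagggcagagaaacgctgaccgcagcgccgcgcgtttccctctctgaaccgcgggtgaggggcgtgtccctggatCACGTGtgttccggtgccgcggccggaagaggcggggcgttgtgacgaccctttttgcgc
TGTTCT, the receptor half-site of progestins and glucocorticoids, was in 13.2% of risen, 11.5% of fallen and 14.7% of all genes. The AP-1 motif TGANTCA was in 8.5%, 3.97% and 6.7% of them and the CREB motif TGACGTCA in 2.43%, 2.91% and 2.5%, in the same order, and no test was made of these shares.

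Of 17 luminal epithelial markers 3 rose and 0 fell (median 0.22), beside 3.43% of all genes rising. Elf3, an epithelial transcription factor, was 0.82 and 1.19 at 6 h and 1.31 and 1.39 at 12 h, with none of the arrays without MFP above 0.08 (1.38 ± 0.17, adjusted p = 0.00193). The adherens junction gene Cdh1 (0.85 ± 0.15) and the tight junction gene Cldn4 (0.94 ± 0.16) rose. For Cldn4 the no MPA arrays, at 0.73 and 0.57, came close to the lowest early array at 0.84. Keratin 8 did not pass (Krt8 -0.09 ± 0.18, adjusted p = 0.863), nor did any of 15 basal markers or 15 milk and secretory genes on the chosen probe sets. The basal gene Mylk passed on a probe set that was not chosen (0.82), while its others read 0.72 and -0.06 without passing.

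Stress, survival and clock genes gave 0 to 5 calls per list, where 3.43% of all genes rose and 4.88% fell, and Btg2 counts in 2 of the lists. Btg2, an antiproliferative p53 target and early response gene, was 1.11 and 1.66 at 6 h and 1.14 and 1.28 at 12 h, with no other of the 8 arrays above 0.44 (1.24 ± 0.22, adjusted p = 0.00907). Of 17 p53 targets 3 rose (Btg2, Cdkn1a and Trp53inp1) and Plk2 fell (-0.98 ± 0.18), and of 19 immediate early genes 3 rose (Btg2, Fosl2 and Klf6) and Egr1 fell (-1.51 ± 0.30, adjusted p = 0.0152). Other probe sets did not pass for Btg2 (0.66), Plk2 (0.01), Fosl2 (0.25) and Klf6 (0.22 to 0.45). Bmf, a proapoptotic BH3-only gene (1.02 ± 0.24), and Mcl1, a survival gene (0.55 ± 0.13, and -0.02 on another probe set), were the 2 of 12 BCL2 family genes that rose. Of 20 genes of STAT3 signalling and mammary involution 2 rose, Il6st, the shared receptor gp130 (1.22 ± 0.16, adjusted p = 0.00234), and the metalloproteinase gene Mmp11 (0.96 ± 0.16). Other probe sets of Il6st read 0.51 to 0.88, of which only the highest passed. The clock repressor gene Cry1 fell (-0.88 ± 0.18) with Nfil3, while Per3 (0.88 ± 0.17), Bhlhe40 (0.94 ± 0.18) and Nr1d2 rose. Other probe sets of Per3 read 0.16 to 0.69, of which only the highest passed, and that of Nr1d2 read 0.43 without passing. The 18 clock genes thus gave 5 calls. Without any 1 of the 8 arrays other than MPA replicate 1, at least 2 of these 5 calls were lost. No clock time of sampling is in the labels, and its part was not tested. The call of Mcl1 was lost without any 1 array other than MPA replicate 2, that of Bmf without any other than MPA replicate 1 and that of Klf6 without any other than no MPA replicate 1. Fosl2 lost its call without the first MPA or no MPA array, 6 h replicate 2 or either 12 h array, and Egr1 without 6 h replicate 2 or either 12 h array. None of 16 hypoxia and glycolysis genes passed.

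Markers of other cell types gave 0 calls in early MFP, beside 3.43% of all genes rising and 4.88% falling. These were 17 macrophage, 10 neutrophil, 14 T and NK cell, 10 B and plasma cell, 16 endothelial, 19 fibroblast and matrix, and 10 adipocyte genes. At those shares, lists of this length would hold few calls. The list medians ran from -0.09 (fibroblast and matrix) to 0.48 (neutrophil). The macrophage median was -0.83 and 0.53 in MPA, -0.57 and -0.32 in no MPA, -0.62 and -0.53 at 6 h, and 0.03 and -0.07 at 12 h, all within the range of the arrays without MFP, and between 0.45 and 1.87 in the late arrays. Of 16 exocrine pancreas genes 4 rose, Prss2 by 5.14 ± 1.08, with 6.20 and 5.18 at 6 h and 0.41 and 1.47 at 12 h beside 0.93 in 1 MPA array. That count was between 0 and 5 when 1 array was left out and 0 without both 6 h arrays. Fgg, a fibrinogen gene of the liver, rose by 0.97 ± 0.18. The epidermal gene Lor fell (-1.66 ± 0.30), being 3.16 and 2.97 in the no MPA arrays and -0.11 from MPA (adjusted p = 0.925).

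The same contrast for the 24 h and 48 h arrays, which shares the arrays without MFP, called 4071 genes (22.4%), 2126 higher (11.7%) and 1945 lower (10.7%). Nop56 had -1.28 there, beside -2.09 in early MFP, Ccnd1 -0.83 beside -1.65, and Mcm2 -0.75 beside -1.49. Zbtb16 had -3.41 beside -2.00, Nrg1 -2.55 beside -2.91, and Oasl2 1.15 beside 1.34. The ribosome biogenesis median was -0.78 beside -1.10, and that of mitosis -1.56 beside -0.05. These differences between late and early MFP were not tested.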

How the data were processed

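RNA of formalin-fixed tumours was measured on 12 Affymetrix mouse arrays and summarised with GCRMA, per the submitters' processing notes (no version given). The authors deposited log2 ratios: back on the linear scale, MPA averages 1 within 0.0001 for 45099 of 45101 probe sets. This step keeps differences between arrays and removes each probe set's level above background, which is unknown here, and the number of arrays limits the precision.

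Groups came from the source names, and replicate numbers follow the order of deposit and pair nothing. A gene was a probe set with 1 annotated symbol, and where a gene had several (9010 genes) the one with the largest SD over the 12 arrays, a rule that favours larger changes. No filter was set on level. One limma model (version 3.58.1, R 4.3.3) with a mean for each of 6 groups over all 12 arrays gave the contrast of the mean of 6 h and 12 h with the mean of MPA and no MPA, with residual and prior degrees of freedom of 6 and 4.21. P-values were adjusted after Benjamini and Hochberg over 18193 genes, with a threshold of 0.05. Replicates of a group differed with an SD of 0.388 to 0.559 over probe sets, and none were identical. Members and all 38 gene lists (585 of 625 genes measured) were chosen with earlier results of these data known, and lists were described by counts and medians alone.

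Named genes were the 12 largest rises and falls and the 8 widest gaps in each direction among genes that passed with arms that did not overlap, up to 3 members per list and direction by adjusted p, the member with the smallest p of a list where none passed, and a set of 16 hormone, cycle and receptor genes. Part of them is printed, and members beyond the rule were named after their values were seen. The control difference was tested by exact permutation over the 8 arrays. Data of 18193 genes were simulated with 200 changed genes and noise that was independent between genes. For this contrast 3% of changes of 0.5, 63.2% of changes of 1 and 98.6% of changes of 2 on the log2 scale were recovered. Of the simulated calls 5.03% were false. The arrays gave more calls and held differences shared by many genes, so this share need not hold for them.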

Additional observations from a re-analysis of the deposited data

Results flagged for a closer look

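A signal also appeared in probe sets outside the gene comparison, those with no gene symbol in the annotation used. Of 9160 such probe sets, 195 were higher and 148 lower in early MFP than in the arrays without MFP by limma at an adjusted p of 0.05. That is 3.74% of them, beside 7.02% of the probe sets with 1 symbol. Groups of 2 arrays were too small for a search for single outlying arrays.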

How the results depend on the processing

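No paired analysis was possible because the labels give the arrays no replicate numbers. The 1512 genes became 875 with the probe set chosen by its SD over the late MFP arrays and 608 after quantile normalization, which gives the columns equal spread although the MPA columns are narrower by construction. They became 878 without both 6 h arrays, 327 without both 12 h arrays (28.1% higher, beside 41.3%), and 699 to 1127 with 1 array left out. Under the other alternatives the count was 1227 to 1743. The 2617 genes with arms apart became 1636 after quantile normalization, 5309 and 4649 without both 6 h or both 12 h arrays, where fewer arrays have to be apart, and 3223 to 3466 with 1 array left out.

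With 1 array left out, calls between 12 h and 6 h were 0 to 2 and between no MPA and MPA 0 to 4, and quantile normalization gave 13 for the latter. Against MPA they were 182 to 663 with 1 array left out, the highest without a no MPA array and 182 to 412 without any other array, and 209 after quantile normalization. Against no MPA they were 29 to 698, with the lowest without no MPA replicate 2 and 87 without replicate 1, 219 to 317 without any early array, and 314 after quantile normalization.

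After quantile normalization the counts were 7 for DNA replication, 4 for interferon, 3 for cholesterol and fatty acid synthesis and 0 for exocrine pancreas genes. With 2 arms in place of 4 groups they were 10, 5, 3 and 2. Without both 12 h arrays they were 2, 1 and 0 for the first 3 lists and 2 for heat shock genes. Leaving out 1 array gave 8 to 13 for DNA replication, 5 to 10 for interferon, 4 to 7 for cholesterol and fatty acid synthesis, 5 to 7 for heat shock, 15 to 17 for ribosome biogenesis and 0 to 5 for exocrine pancreas. The last count was also 2 with the late probe sets, 8 with genes of larger SD, 15 with the 8 arrays alone, 9 with array weights and 0 without the 6 h arrays, and had no value without the genes that follow other organs.

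Of 115 named genes 90 passed, and 41 of these stayed past the threshold under every alternative run on named genes. The alternatives without both 6 h or both 12 h arrays were not run on them. Leaving out 1 array cost between 13 and 30 of the 115 their call. The 41 hold Nrg1, Kcne3, Cdc6, Nop56, Myc, Zbtb16, Ceacam1 and Oasl2. In the main limma model, the 6 h arrays alone passed for Nrg1 (adjusted p = 0.00874) and Kcne3 (adjusted p = 0.00256) and not for Ceacam1 (adjusted p = 0.138). With the late probe sets Tlr4 was at -0.217, Mcl1 at -0.0206 and Mylk, which had not passed, at -0.0633. Of genes that had not passed, Krt8 was at 0.0438 with mean probe sets and -0.29 to 0.11 with 1 array left out, and Sgk1 at -0.58 to 0.00267. Pgr was at 0.86 with the late probe set, 0.42 with mean probe sets, -0.48 after quantile normalization, -0.00448 after median centring, and -0.15 to 0.15 with 1 array left out. Where not stated, the cause was not tested.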
